A study of Homo sapiens with 6 samples.

Results

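A set of 9 genes that dissolve or spare the pericellular matrix were followed on expression microarrays of cholangiocarcinoma cells treated with regorafenib: PLAU, PLAUR, PLAT, MMP1, MMP7, MMP10, MMP13, MMP14 and TIMP1. The rule names the genes and uses no measured value, although the set was drawn up with earlier results of these data known. They made up 9 of the 19775 genes on the arrays. The genes were read from probe sets annotated to exactly 1 symbol, of which 15 of 41091 belonged to the 9 genes. Each gene was represented by its probe set of the highest mean signal. Regorafenib is an oral inhibitor of several receptor and intracellular kinases. Cells of the KKU-100 line and of the HuccT1 line, both labelled bile duct carcinoma, received solvent, regorafenib at 1 µM (low dose) or regorafenib at 10 µM (high dose), as the sample labels state. The text of the study states other, lower doses for the arrays, so the doses are called low and high here. The labels of all 6 samples also mention puromycin selection and stable transduction without naming a construct, so treated and solvent cells share this background. Each condition was measured on 1 array, with no replicate, and both doses of a line were set against the same solvent array.

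Plasminogen activation turns the inactive plasma protein plasminogen into plasmin, a broad serine protease, at the cell surface. Urokinase (PLAU), bound to its receptor (PLAUR), and tissue-type activator (PLAT) carry out this step, and plasmin in turn can activate secreted matrix metalloproteinases. Matrix metalloproteinases are zinc enzymes that cut collagens and other matrix proteins, and the tissue inhibitors of metalloproteinases, such as TIMP1, block their active site. In carcinoma cells many of these genes are known targets of growth factor signalling through the AP-1 and ETS transcription factors.

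The array medians lay between 28.8 and 29.3 signal units, so arrays were compared without further scaling. All 8 measured markers of bile duct epithelium were at or above the array median on each HuccT1 array, against 5 or 6 of 8 on the KKU-100 arrays. The epithelial markers KRT19 and EPCAM were near the bottom of the scale in KKU-100 cells, with KRT19 signals of 8.62 to 11.1 in KKU-100 cells and 7654 to 9321 in HuccT1 cells. The summed signal of 5 leukocyte markers was 123 to 136 on the KKU-100 arrays and 139.7 to 154 on the HuccT1 arrays, and that of 7 fibroblast markers was 829 to 1107 on the KKU-100 arrays and 312 to 389 on the HuccT1 arrays. Of the fibroblast markers, COL3A1 alone had signals of 538, 779 and 548 in KKU-100 cells with solvent, low dose and high dose. Endothelial markers summed to 134 to 144 on the KKU-100 arrays and 131 to 166 on the HuccT1 arrays. The sum of 5 hepatocyte markers was 263 to 283 on the KKU-100 arrays and 2529 to 3625 on the HuccT1 arrays. It was highest in HuccT1 cells at high dose, where SERPINA1 alone had 3509 of it. With solvent and low dose SERPINA1 had 2411 and 2466 in HuccT1 cells, while ALB, APOA1 and APOB were below the array median on every array. Among the bile duct markers SOX9 moved by -1.03 and -1.13 on the log2 scale in HuccT1 cells at low and high dose, and by 0.20 and -0.75 in KKU-100 cells. CDH1, E-cadherin, moved by 1.75 and 1.80 in KKU-100 cells, from a solvent signal of 22.9, below the array median, to 76.7 and 79.9. In HuccT1 cells its solvent signal was 2628, and it moved by 0.30 and 0.05. The part of these markers in the results was not tested.

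The lines first differed in which of the proteases they expressed. KKU-100 cells had more PLAT, TIMP1 and PLAUR than HuccT1 cells, while HuccT1 cells had more MMP7, MMP1 and PLAU. MMP7, matrilysin, a small epithelial protease, had signals (probe set 204259_at) of 23.8, 21.0 and 28.99 in KKU-100 cells with solvent, low dose and high dose. In HuccT1 cells its signals were 5869.7, 6916 and 5105, so the ranges of the lines were far apart at every treatment. Across the 6 arrays, the fitted difference of KKU-100 minus HuccT1 in MMP7 was -7.92 ± 0.20 on the log2 scale (SE, adjusted p = 2.07e-05, limma with line and treatment as terms, Benjamini-Hochberg over 27307 probe sets). MMP1, interstitial collagenase, was below the array median on all 3 KKU-100 arrays, and its fitted difference was -4.96 ± 0.22 (SE, adjusted p = 7.20e-05, limma). Both genes were below the filter on low values in KKU-100 cells and entered the fit through their HuccT1 signals, so the sizes of these differences rest on KKU-100 signals near or below the array median and are no exact folds. The corresponding log2 difference of PLAU was -3.13 ± 0.22 (SE, adjusted p = 0.000296, limma).

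In the other direction, the log2 difference was 2.98 ± 0.20 for PLAT (SE, adjusted p = 0.000231, limma) and 1.09 ± 0.11 for TIMP1 (SE, adjusted p = 0.000815, limma). PLAUR was higher in KKU-100 cells by 0.43 ± 0.12 (SE, adjusted p = 0.0272, limma), a call that was lost when the low-dose array of KKU-100 (adjusted p = 0.164) or of HuccT1 (adjusted p = 0.159) was left out. MMP14, the membrane-anchored metalloproteinase, had a difference of -0.44 ± 0.19 that did not pass the threshold (SE, adjusted p = 0.108, limma), although a second MMP14 probe set, 202828_s_at, had one of -0.94 (adjusted p = 0.00945, limma). The methods name a t-test for repeated experiments. A t-test was run here on the same values, paired by treatment, so the treatments stood in for repeats. In it the calls of PLAT (adjusted p = 0.0515), PLAU (adjusted p = 0.0553), TIMP1 (adjusted p = 0.0695) and PLAUR (adjusted p = 0.137) were lost. In limma 3 of the 7 genes tested were higher in KKU-100 cells and 3 were lower, in a comparison where 51.1% of all probe sets were called, 26.1% higher and 25% lower. MMP10 and MMP13 did not pass the filter on low values and were outside this test. No condition was repeated, so these p-values measure how evenly the line difference held across the treatments, not the spread between repeats.

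**Figure D1:**
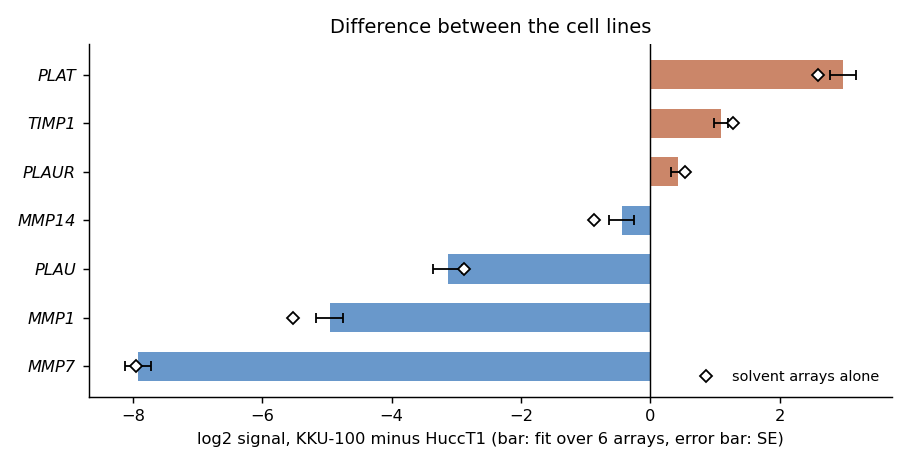
The plot gives the log2 difference of KKU-100 minus HuccT1 cells for the 7 genes tested, with the fit over 6 arrays as a bar, its SE as an error bar and the solvent arrays alone as a diamond. MMP7 at -7.92 and MMP1 at -4.96 lie farthest on the HuccT1 side, and PLAT at 2.98 lies farthest on the KKU-100 side.

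PLAT and PLAUR were lower with regorafenib at both doses in both lines, and PLAU was lower at both doses in KKU-100 cells and at high dose in HuccT1 cells. PLAT had signals (probe set 201860_s_at) of 4961, 2269 and 2217 in KKU-100 cells with solvent, low dose and high dose, and of 825, 322 and 189.9 in HuccT1 cells. Both treated arrays lay below the solvent array in each line, and the lowest signal was that of HuccT1 cells at high dose. The log2 fold change against solvent was -1.13 at low dose and -1.16 at high dose in KKU-100 cells. In HuccT1 cells it was -1.36 at low dose and -2.12 at high dose, a 4.35-fold lower signal.

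PLAUR, the urokinase receptor, had signals (probe set 210845_s_at) of 1727, 884 and 888 in KKU-100 cells with solvent, low dose and high dose, and of 1195, 596 and 774 in HuccT1 cells. The signal was thus lower at both doses in both lines, without a further step from low to high dose. The log2 fold changes were -0.97 and -0.96 at the low and high dose in KKU-100 cells and -1.004 and -0.63 in HuccT1 cells. A second PLAUR probe set, 211924_s_at, had values of -0.85 and -0.99 in KKU-100 cells and -0.84 and -0.46 in HuccT1 cells. The probe set 214866_at differed in size, with -0.13 and -0.23 in KKU-100 cells and -0.39 and -0.63 in HuccT1 cells, so the size of the PLAUR change in KKU-100 cells depended on the probe set.

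PLAU, the activator that PLAUR binds, had signals (probe set 205479_s_at) of 412, 202 and 249 in KKU-100 cells with solvent, low dose and high dose, and of 3038, 2782 and 1639 in HuccT1 cells. In KKU-100 cells the treated arrays were both well below solvent, whereas in HuccT1 cells the low-dose array was close to solvent. The log2 fold changes at the low and high dose were -1.03 and -0.73 in KKU-100 cells and -0.13 and -0.89 in HuccT1 cells. The other PLAU probe set, 211668_s_at, gave -0.85 and -0.97 in KKU-100 cells and -0.24 and -0.94 in HuccT1 cells.

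**Figure D2:**
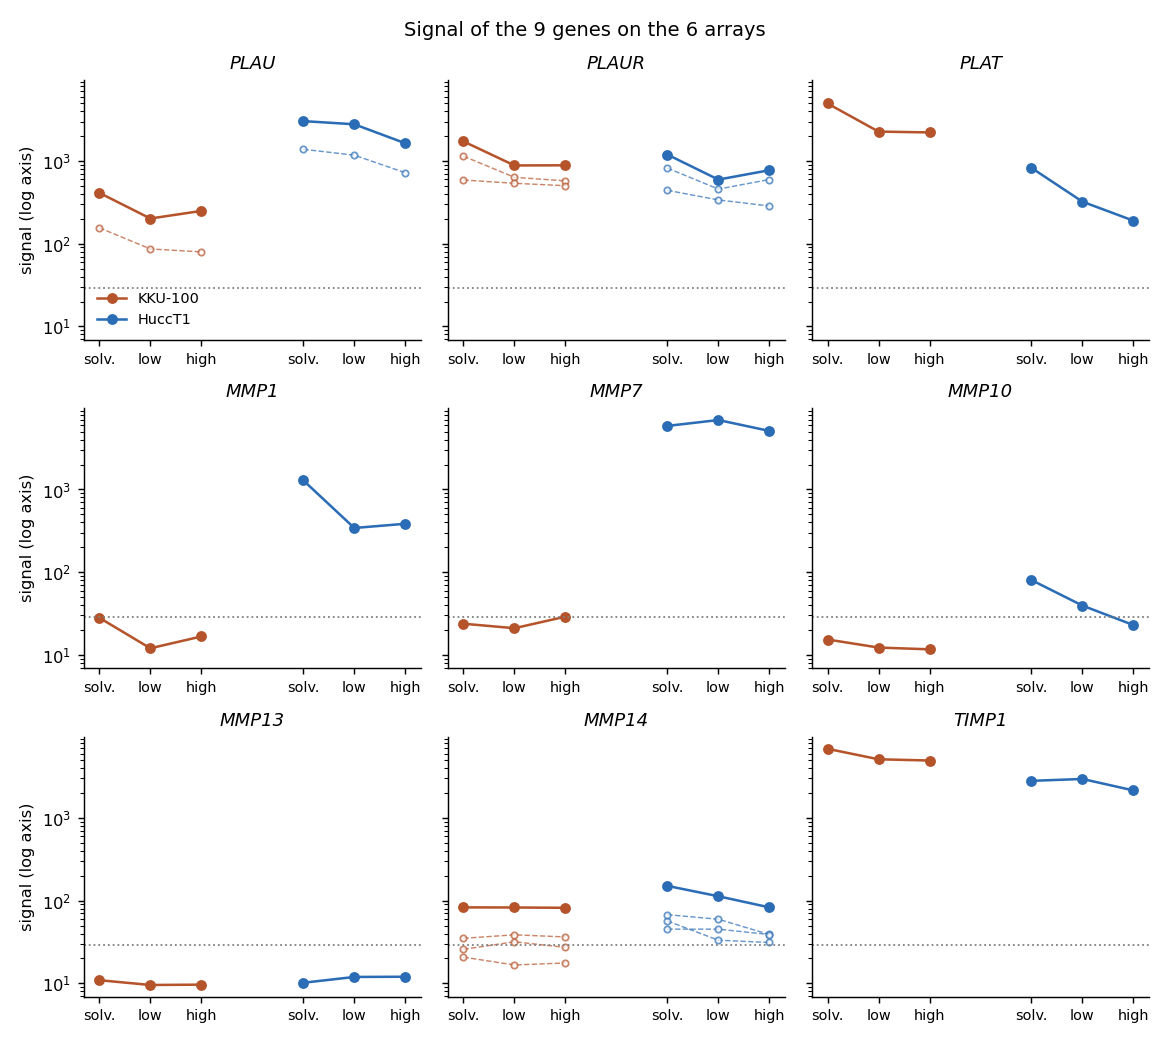
Each panel plots the signal of 1 gene on a log axis at solvent, low dose and high dose, with 1 array per point, for KKU-100 and HuccT1 cells, open symbols for further probe sets of the gene and a dotted line at the array median. PLAT and PLAUR lie below their solvent array at both doses in both lines, and MMP7 is at 5105 signal units or above on the HuccT1 arrays and at or below 28.99 on the KKU-100 arrays.

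Among the metalloproteinases, MMP1 and MMP10 were lower in HuccT1 cells at both doses. MMP1 had signals (probe set 204475_at) of 28.1, 12.0 and 16.7 in KKU-100 cells with solvent, low dose and high dose, and of 1288, 342 and 385 in HuccT1 cells. In HuccT1 cells both treated arrays lay below solvent, with log2 fold changes of -1.91 at low dose and -1.74 at high dose, or 3.76-fold and 3.35-fold lower signals. In KKU-100 cells the gene was below the filter on low values, and its values of -1.22 and -0.75 were between signals under the array median.

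MMP10, stromelysin-2, had signals (probe set 205680_at) of 15.3, 12.3 and 11.7 in KKU-100 cells with solvent, low dose and high dose, and of 80.3, 39.4 and 22.9 in HuccT1 cells. The HuccT1 signals stepped down with dose, and the high-dose signal was itself below the array median. The log2 fold changes in HuccT1 cells were -1.03 at low dose and -1.81 at high dose. In KKU-100 cells MMP10 was below the filter, with -0.32 and -0.40.

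MMP14, which activates the gelatinase MMP2 at the cell surface, had signals (probe set 160020_at) of 82.9, 82.7 and 81.9 in KKU-100 cells with solvent, low dose and high dose, and of 151, 113 and 82.9 in HuccT1 cells. The 3 KKU-100 arrays were nearly equal, and the HuccT1 array at high dose reached their level. The log2 fold changes in HuccT1 cells were -0.42 and -0.86 at the low and high dose, and in KKU-100 cells -0.00 and -0.02. At the high dose in HuccT1 cells the other MMP14 probe sets gave -0.86, -0.80 and -0.22.

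MMP7 and TIMP1 did not pass 1.5-fold in either line. The HuccT1 signals of MMP7 moved by 0.24 at low dose and -0.20 at high dose, and MMP7 was below the filter in KKU-100 cells. TIMP1, the secreted inhibitor, had signals (probe set 201666_at) of 6856, 5121 and 4948 in KKU-100 cells with solvent, low dose and high dose, and of 2809.8, 2960.3 and 2152 in HuccT1 cells. Its log2 fold changes at the low and high dose were -0.42 and -0.47 in KKU-100 cells and 0.08 and -0.38 in HuccT1 cells. MMP13, collagenase-3, had signals (probe set 205959_at) of 10.9, 9.55 and 9.64 in KKU-100 cells and of 10.2, 11.9 and 12.0 in HuccT1 cells, below the filter in both lines, and no change can be read from values this low.

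**Figure D3:**
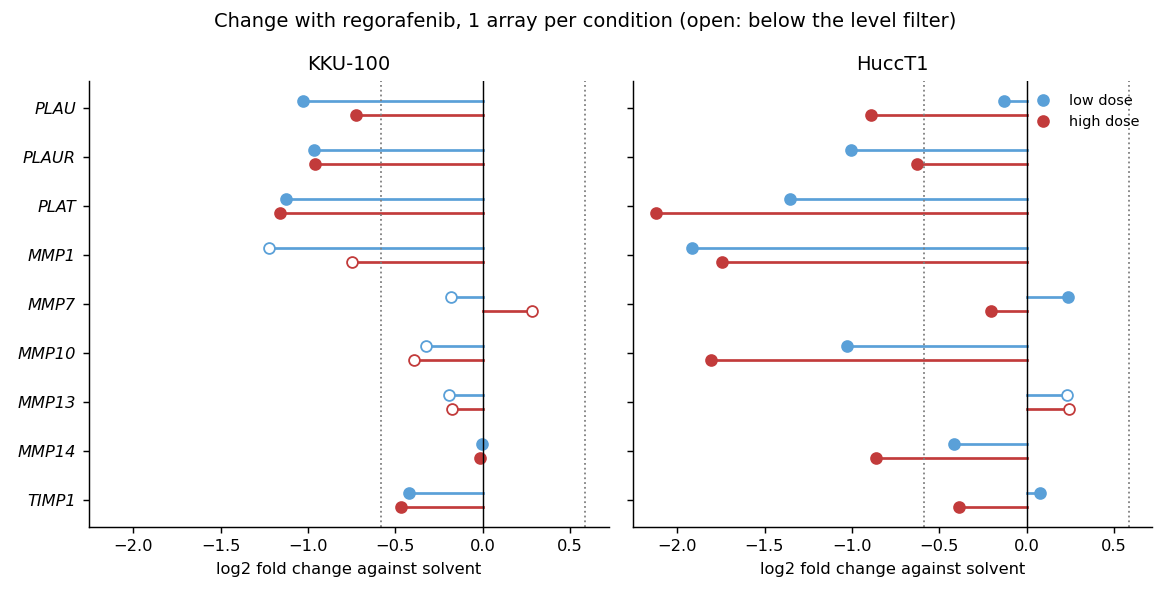
The plot gives the log2 fold change of each gene at low and high dose against solvent in KKU-100 and HuccT1 cells, with open symbols for genes below the filter on low values and dotted lines at 1.5-fold. The largest decrease is that of PLAT in HuccT1 cells at high dose, at -2.12.

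Of the 9 genes, 5 passed the filter on low values in KKU-100 cells and 8 in HuccT1 cells. In KKU-100 cells, 3 of the 5 (PLAU, PLAUR and PLAT) were more than 1.5-fold lower at low dose, where 7.32% of all genes past the filter were lower. The same 3 genes were lower at high dose, where 4.86% of all genes were lower. Both counts became 0 without the probe sets marked _s_at or _x_at, which can match several transcripts, since PLAU and PLAT have no other probe set and PLAUR has only the one that moved by -0.13 and -0.23. In HuccT1 cells, 4 of the 8 (PLAUR, PLAT, MMP1 and MMP10) were lower at low dose, with 3.32% of all genes lower, and without the _s_at and _x_at probe sets 2 of 6 were lower. At the high dose PLAU and MMP14 joined them, making 6 of 8, with 6.44% of all genes lower. None of the members was more than 1.5-fold higher in any of these 4 comparisons, where 9.75% and 9.44% of all genes were higher in KKU-100 cells at the low and high dose and 3.68% and 8.23% in HuccT1 cells.

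The median log2 fold change of the members past the filter was -0.97 and -0.73 in KKU-100 cells at the low and high dose, against 0.06 over all genes at each dose. In HuccT1 cells it was -0.71 and -0.88, against 0.02 over all genes at each dose. With no filter, 4, 4, 4 and 6 of all 9 genes were lower in KKU-100 cells at the low and high dose and in HuccT1 cells at the low and high dose, in that order, where 5.39%, 3.73%, 2.37% and 4.55% of all genes were lower. None of the 9 was higher, against 6.97%, 6.86%, 2.88% and 6.05% of all genes in the same order. All 5 members past the filter in KKU-100 cells lay below solvent at both doses, as did 30.9% of all genes. In HuccT1 cells 6 of 8 did, as did 31.3% of all genes. Of the KKU-100 values, those of MMP14 were only -0.004 and -0.017 at the low and high dose. Its probe sets 202828_s_at (0.30 and 0.08) and 217279_x_at (0.14 and 0.06) lay above solvent, and 202827_s_at (-0.32 and -0.24) lay below it. Since both doses share a solvent array, the doses are not independent of each other.

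No dose effect common to both lines passed the threshold in limma, for the members or for any of the 27307 probe sets. At the low dose the fitted change was -0.99 ± 0.14 for PLAUR, -1.24 ± 0.24 for PLAT and -1.57 ± 0.26 for MMP1 (SE on the log2 scale, adjusted p = 0.394 for each, limma). At the high dose it was -1.64 ± 0.24 for PLAT (adjusted p = 0.14, limma), -0.79 ± 0.14 for PLAUR (adjusted p = 0.159, limma) and -1.25 ± 0.26 for MMP1 (adjusted p = 0.177, limma). At an unadjusted p under 0.05, 3 of the 7 genes tested were lower at low dose and 5 at high dose, and none was higher. Over all probe sets 6% were lower and 4.72% higher at low dose, and 6.66% lower and 8.28% higher at high dose. The fit used MMP1 and MMP7 although both were below the filter in KKU-100 cells, since their mean log2 signals over all 6 arrays passed. Without the HuccT1 solvent array the low-dose change was -1.06 for PLAUR and -1.15 for MMP1. Without the KKU-100 solvent array the high-dose change was -1.94 for PLAT and -1.67 for MMP1. Each of these fits held 1 solvent array, so its step from solvent came from 1 line and was not a change common to both. The MMP1 value of -1.15 was set against the KKU-100 solvent signal, which was below the array median.

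A difference in response between the lines was not shown either. In its fit the low and high dose of a line stood in for repeats, so any difference between them counted as residual spread. With both doses pooled, the change in KKU-100 minus that in HuccT1 cells was 0.84 ± 0.37 for MMP1 (SE, adjusted p = 0.629, limma interaction), 0.63 ± 0.35 for MMP14 (SE, adjusted p = 0.701) and 0.59 ± 0.46 for PLAT (SE, adjusted p = 0.779). The value of MMP1 sets HuccT1 changes against KKU-100 signals below the filter, so its size is not a measure of the KKU-100 response. None of the 7 genes had an unadjusted p under 0.05 in this test, and 0 of all 27307 probe sets passed after adjustment, where 4.85% had a higher and 3.35% a lower value at an unadjusted p under 0.05. With 2 lines and 1 array per condition, this does not show that the lines responded alike.

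MMP7, MMP10, MMP1 and MMP13 lie in 1 cluster of metalloproteinase genes on chromosome 11. Within the cluster the genes did not share a level or a response. In HuccT1 cells MMP7 was high and within 1.5-fold of solvent at both doses, MMP1 and MMP10 were more than 1.5-fold lower at both doses, and MMP13 was below the filter. The other 5 genes of the cluster (MMP20, MMP27, MMP8, MMP3 and MMP12) were below the filter in both lines. In KKU-100 cells all 9 genes of the cluster were below the filter.

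**Figure D4:**
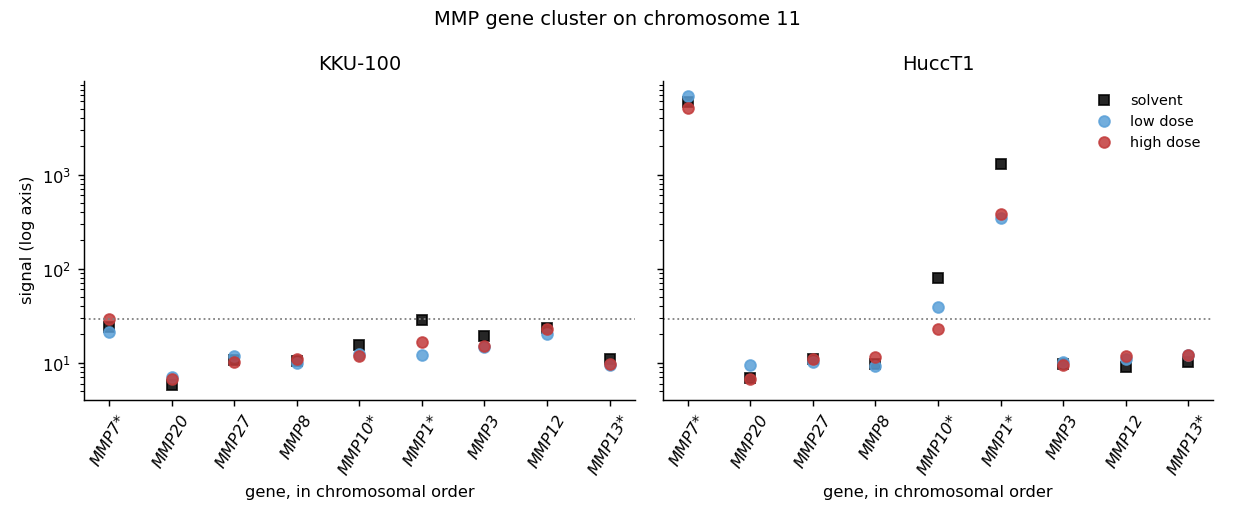
Signals of the 9 metalloproteinase genes of the chromosome 11 cluster are plotted in their order along the chromosome for KKU-100 and HuccT1 cells at solvent, low dose and high dose, on a log axis with the array median as a dotted line. An asterisk marks MMP7, MMP10, MMP1 and MMP13, of which the first 3 exceed the median in HuccT1 cells with solvent, and signals of different probe sets cannot be set against each other between genes.

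The promoters of PLAUR, MMP10 and MMP7 are shown because PLAUR was lower in both lines, and MMP10 and MMP7 lie in the same cluster although their responses in HuccT1 cells differed. Each is the 250 bases before the RefSeq start site on GRCh38.p14, all on the minus strand, with capitals for an AP-1 motif (TGAGTCA), a PEA3 motif of ETS factors (AGGAAG) or a TATA box (TATAAA), searched on both strands: PLAUR at chr19:43670170-43670419, MMP10 at chr11:102780629-102780878 and MMP7 at chr11:102530748-102530997.
PLAUR: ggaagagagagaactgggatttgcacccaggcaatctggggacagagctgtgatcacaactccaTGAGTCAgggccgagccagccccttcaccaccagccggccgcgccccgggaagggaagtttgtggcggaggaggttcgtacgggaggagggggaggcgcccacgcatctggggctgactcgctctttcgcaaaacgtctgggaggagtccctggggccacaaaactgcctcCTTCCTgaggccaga
MMP10: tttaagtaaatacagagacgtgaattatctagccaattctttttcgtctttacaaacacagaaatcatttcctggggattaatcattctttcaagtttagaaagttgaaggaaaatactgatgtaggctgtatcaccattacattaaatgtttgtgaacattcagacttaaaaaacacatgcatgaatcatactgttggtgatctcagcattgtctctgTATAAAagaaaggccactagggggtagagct
MMP7: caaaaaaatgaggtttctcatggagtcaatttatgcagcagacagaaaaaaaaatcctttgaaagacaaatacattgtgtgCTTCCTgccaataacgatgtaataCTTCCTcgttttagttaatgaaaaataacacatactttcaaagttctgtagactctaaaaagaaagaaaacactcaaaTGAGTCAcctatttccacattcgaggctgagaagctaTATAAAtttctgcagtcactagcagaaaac

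Of the 9 genes, 6 had a window in the RefSeq table (7 windows in all). The AP-1 motif was found in the windows of PLAUR, at 186 bases before the start, and MMP7, at 67 bases before it, and 4.2% of all 35116 windows held it. The PEA3 motif was in those of PLAU, PLAUR, MMP7 and TIMP1, and in 28.7% of all windows. The TATA box was in MMP10, 31 bases before the start, and MMP7, 30 bases before it, and in 10.7% of all windows, while the TEAD motif GGAATG was in none of the 7 and in 11.9% of all. MMP7, with the AP-1 letters, did not pass 1.5-fold in HuccT1 cells, and MMP10, without these exact letters in its window, was lower at both doses. Variants of the motif were not searched, and MMP1 and PLAT had no window. The part of AP-1 in these changes was not tested. A match to these letters does not show that a factor binds there.

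A list of 73 further genes of the protease system was set beside the members, holding other metalloproteinases, their inhibitors, the remaining plasminogen system, ADAM and ADAMTS proteases, membrane serine proteases, cathepsins and cystatins. Of these, 70 were measured and analysed here. In KKU-100 cells 2 of the 49 genes past the filter were lower at low dose (A2M at -0.68, a general protease inhibitor, and CTSK at -0.93, a collagen-cutting cathepsin) and 0 were higher. At the high dose 2 were lower (ADAMTS6 at -0.66 and SPINT1 at -0.75) and 2 were higher (ADAMTS1 at 0.72 and CSTA, a cysteine protease inhibitor, at 1.13). In HuccT1 cells 1 of 56 was lower at low dose and 5 at high dose, with 2 higher at high dose (CSTA at 1.13 and TIMP4 at 0.96). Of all genes past the filter, 7.32% and 4.86% were lower in KKU-100 cells at the low and high dose, and 3.32% and 6.44% in HuccT1 cells. Higher were 9.75% and 9.44% of all genes in KKU-100 cells and 3.68% and 8.23% in HuccT1 cells. The median log2 fold change of this list was between -0.06 and 0.03 over the 4 comparisons.

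ADAMTS6, a secreted metalloproteinase, was the 1 gene of this list that was lower in a line at both doses. Its signals were 245.6, 92.1 and 54.1 in HuccT1 cells with solvent, low dose and high dose, with log2 fold changes of -1.42 and -2.18, and 200.7, 179 and 127 in KKU-100 cells. The HuccT1 signals stepped down with dose, and the lowest KKU-100 signal was above both treated HuccT1 signals. At the high dose in HuccT1 cells the other 4 lower genes were ADAM19 at -1.71, KLK10 at -0.78, MMP24 at -0.68 and ADAMTS12 at -0.63. In limma 0 of the 53 genes tested had a dose effect common to both lines at either dose (0 and 7 at an unadjusted p under 0.05). Of these 7, at the high dose, 6 were lower and 1 was higher, where 6.66% of all probe sets were lower and 8.28% higher.

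**Figure D5:**
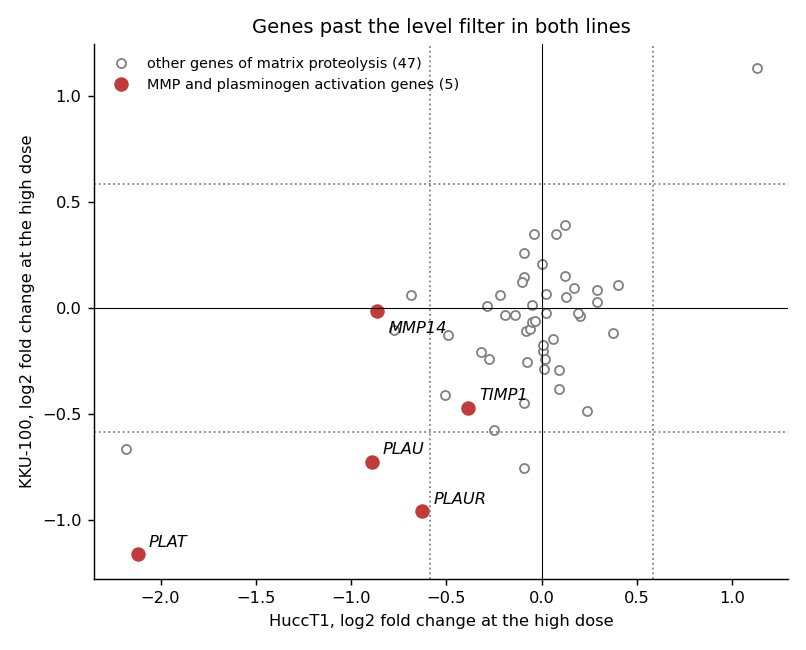
Log2 fold changes at high dose are plotted for KKU-100 and HuccT1 cells, with the 5 members and the 47 genes of the wider protease list that passed the filter in both lines. PLAT, PLAUR, PLAU and ADAMTS6 are more than 1.5-fold lower on both axes, and the points within a line share 1 solvent array.

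The lines also differed in the wider list, where 20 of 53 genes were higher in KKU-100 cells and 18 were lower (limma, adjusted p under 0.05). Over all probe sets 26.1% were called higher and 25% lower in this comparison. SERPINE2, protease nexin-1, which inhibits urokinase and thrombin, was higher in KKU-100 cells by 7.83, and TIMP3, an inhibitor held in the matrix, was higher by 4.80 on the log2 scale. ST14, matriptase, an epithelial membrane serine protease, had a difference of -5.13, and SPINT1, its inhibitor, one of -4.50. In HuccT1 cells the signals were only 37.1 to 41.05 for SERPINE2 and 36.2 to 44.2 for TIMP3. Those in KKU-100 cells were 29.5 to 37.8 for ST14 and 22.2 to 37.5 for SPINT1. These sizes rest on signals near the array median and are no exact folds.

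A list of 17 transcription factors, the AP-1 and ETS factors together with RELA, RUNX2, TEAD1 and TEAD4, was also measured, and 16 passed the filter in each line. In KKU-100 cells 9 were more than 1.5-fold lower at low dose and 8 at high dose, against 7.32% and 4.86% of all genes. In HuccT1 cells 6 and 4 were lower, against 3.32% and 6.44% of all genes. In these comparisons 0 were higher, against 9.75%, 9.44%, 3.68% and 8.23% of all genes in the same order. FOSL1, which encodes FRA-1, a partner in AP-1, had signals of 354, 88.7 and 125 in KKU-100 cells with solvent, low dose and high dose, and of 860.5, 336 and 305 in HuccT1 cells. The treated arrays lay below solvent in each line, by log2 values of -1.996 and -1.50 for KKU-100 cells and -1.36 and -1.50 for HuccT1 cells. FOS and ETV5 were lower at both doses in KKU-100 cells, by -4.92 and -4.98 for FOS and -3.16 and -2.37 for ETV5, and ETV4 was lower at both doses in both lines. No dose effect of the list passed in limma. At an unadjusted p under 0.05, 5 genes were lower at low dose and 4 at high dose, against 6% and 6.66% of all probe sets. The part of these factors in the changes of the proteases was not tested.

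Over the 4 fold changes against solvent, the genes nearest to each member were found by the mean absolute difference in log2 fold change, among 12032 others past the filter in both lines. The nearest to PLAT were SPRY2 (0.206), ANTXR2 (0.291) and SLC6A14 (0.391). The nearest to PLAUR were MFSD2A (0.0777), TGFA (0.0976) and CAPRIN2 (0.158), and the nearest to PLAU were PPM1B (0.101), NCEH1 (0.178) and CEP76 (0.18). PLAT thus had no gene as near to it as those of PLAUR or PLAU. For MMP14 and TIMP1, whose changes were smaller, the nearest were CAMK2N1 (0.0683) and ITGA1 (0.0613). These values describe likeness over 4 comparisons that share 2 solvent arrays.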

How the data were processed

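Total RNA of 6 cell samples (2 lines, 3 treatments, 1 array per condition) was hybridised to Affymetrix HG-U133 Plus 2.0 arrays. The authors deposited a table of signal intensity on a linear scale per probe set, made with MAS5 per the processing notes; the methods also name a log2 normalization in GeneSpring, which the deposited values do not show, so log2 was taken here with no further scaling. Per the labels the doses were 1 and 10 µM. Of 54675 probe sets, 62 controls were left out. In GEO's platform annotation 41091 had 1 symbol, 1801 several and 11721 none, and only the first represented genes. The filter percentile was taken over all 54613 probe sets left. The limma fits used those past the filter, with or without a symbol. A gene was kept in a line when its mean log2 signal over the line's arrays reached the 50th percentile of probe sets (28.9 in KKU-100, 29.1 in HuccT1; 12694 and 12789 genes).

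A difference between single arrays was called at the study's 1.5-fold cutoff, without a p-value. Line, dose and line by regorafenib effects were fitted with limma 3.58.1 in R 4.3.3 on 27307 probe sets (mean variance trend, Benjamini-Hochberg, threshold 0.05), a fit that was first tested on simulated data. No condition was repeated, so the residual spread of the line and dose effects comes from the additive model. That of the interaction comes from the difference between the low and high dose in each line, which stand in for repeats. Alternatives were another filter, cutoff, scaling, probe set rule, a paired t-test (by treatment between lines, by line for a dose) and leaving out each array. Genes were named where they were members, passed 1.5-fold the same way at both doses or passed limma, with further genes of the lists chosen after their values were seen. The number of arrays limits the precision. The members and lists were chosen with earlier results of these data known. Promoters came from a RefSeq table of GRCh38.p14, in which MMP1, MMP13 and PLAT were not matched. Tables were handled in Python 3.11.15 (pandas 2.3.3, numpy 2.4.6).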

Additional observations from a re-analysis of the deposited data

How the results depend on the processing

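No paired analysis by replicate number was possible because each condition has 1 sample; the cell line is a term of the limma fit, so each dose was set against solvent within a line. Without probe sets that can detect several genes, 0 members were lower in KKU-100 cells at either dose and 2 of 6 in HuccT1 cells at the low dose. At a 2-fold cutoff the count was 1 in KKU-100 and 3 in HuccT1 cells at the high dose. In the wider protease list, KKU-100 cells at the low dose had 1 gene past the cutoff with a 60th percentile filter and 0 at 2-fold, KKU-100 cells at the high dose had 1 at 2-fold, HuccT1 cells at the low dose had 2 after quantile normalization and 0 with the median over probe sets, and HuccT1 cells at the high dose had 3 at 2-fold.

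Leaving out each array gave 5 to 6 members called between lines. It left a treatment with 1 array, so for the dose and interaction fits only the sizes are given. Between lines the t-test paired by treatment called 2 members after adjustment, MMP7 and MMP1. Over the fits that left out 1 array, the log2 change at the low dose was -0.30 to 0.36 for MMP7, -0.53 to 0.10 for MMP14 and -0.40 to 0.054 for TIMP1. MMP7 at the high dose gave -0.31 to 0.39. The interaction was -0.75 to 0.012 for PLAU, -0.34 to 0.041 for PLAUR and -0.20 to 0.27 for MMP7. All other member values of the fits kept their direction. The MMP14 fold changes in KKU-100 cells were -0.004 and -0.017 at the low and high dose. They became 0.008 and 0.007 with centring on the array median, and 0.068 and 0.019 with the median over probe sets. With 1 array per condition, array error and response cannot be told apart in a single fold change.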
